A study of Mus musculus with 6 samples.

Results

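The transcripts described here encode the RAS, RAF, MEK and ERK proteins of the ERK cascade: the GTPases Hras and Nras, the kinases Araf and Braf, the kinases Map2k1 (MEK1) and Map2k2 (MEK2), and the kinase Mapk3 (ERK1). They were chosen by gene symbol, and 7 of 7 were found among the 35975 rows of the deposited table that carry counts. Other genes of these families are not analysed here. The tissue sequenced was interscapular brown fat, a heat-producing depot, of mice on the C57BL/6 background. The Olfm4CKO group carries a floxed Olfm4 gene and a Cre recombinase driven by Ucp1, a gene of brown adipocytes, so deletion is directed to those cells and not to the nerves, glia, vessels or immune cells of the depot. The Ctrl group is labelled by genotype and by an Olfm4 wild-type tag in its titles. The labels do not say whether it carries the floxed alleles or the Cre transgene, nor the age or sex of any mouse. There are 3 Olfm4CKO and 3 Ctrl libraries by the genotype label. The titles of the Olfm4CKO samples carry the same wild-type tag as those of Ctrl, so the tag does not tell the groups apart.

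RAS proteins are small GTPases at the plasma membrane that receptor tyrosine kinases switch on through exchange factors and that GTPase-activating proteins switch off. Active RAS recruits RAF kinases, RAF phosphorylates MEK, and MEK phosphorylates ERK, which acts on cytoplasmic and nuclear substrates. The cascade is regulated mainly by phosphorylation and localisation, which messenger RNA does not measure. In brown fat, ERK signalling has been linked to adipocyte differentiation and to the response to adrenergic signals, and in peripheral nerves to the state of Schwann cells. The series is about MEK and ERK signalling in Schwann cells and the innervation of this depot, and the comparison asks whether the levels of the cascade's own transcripts differ between the genotypes.

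Values per gene come from 2 Olfm4CKO and 2 Ctrl libraries. The replicate 3 columns were left out because their values do not follow the gene symbols: across 24273 rows they correlated with the remaining columns at -0.0209 to -0.0156 (Spearman), against 0.94 to 0.9474 among those 4 columns. Total counts of the 4 libraries used ran from 15346705 to 17309325. The deleted gene, Olfm4, was at 0 counts in every one of the 4, Ctrl included. That allows up to 0.193 and 0.195 CPM (counts scaled to a common library total) in the Olfm4CKO libraries and up to 0.188 and 0.173 CPM in the Ctrl libraries (counting error only), so it does not check the genotype labels. The Y-linked genes Ddx3y, Eif2s3y, Kdm5d and Uty were detected in Ctrl replicate 1 and had 0 counts in the other 3 libraries, so the libraries are not all from mice of one sex. Sex is thus not balanced between the groups, and its part in the differences below was not tested. Markers of brown adipocytes were abundant, with 7 of 7 genes detected and summed levels of 16818 and 10086 CPM in the Olfm4CKO libraries against 16812 and 21364 CPM in the Ctrl libraries. In whole tissue, fewer cells of a type and less RNA per cell cannot be told apart. Whether the libraries stem from different mice is not in the labels. The Ctrl libraries differ in Y-linked genes and so do not stem from the same mouse, but for the Olfm4CKO libraries it remains unknown. The p-values below therefore cover library-to-library spread alone.

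All 7 members were expressed well above the detection limit, with 195 to 3253 counts in a library, and all passed the filter on low counts. Compared per kilobase of the longest protein-coding transcript, the MEK2 and ERK1 transcripts stood highest and the B-Raf transcript lowest. Map2k2 averaged 61.1 ± 15.3 normalised CPM per kilobase in Olfm4CKO and 65.7 ± 20.5 in Ctrl (mean ± SD over n = 2 libraries, here and for the other group means). Mapk3 averaged 57.6 ± 14.2 CPM per kilobase in Olfm4CKO and 58.9 ± 10.98 in Ctrl, and its 4 values overlapped those of Map2k2, although Map2k2 was the higher in 4 of 4 libraries. No value of Mapk3 overlapped one of the next gene, Map2k1.

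A middle group followed, in which the order changed between libraries. Map2k1 had 23.3 ± 5.26 CPM per kilobase in Olfm4CKO and 26.5 ± 3.23 in Ctrl. Hras had 22.4 ± 7.45 CPM per kilobase in Olfm4CKO and 24.2 ± 7.81 in Ctrl, and Araf had 20.3 ± 2.04 in Olfm4CKO and 20.3 ± 1.18 in Ctrl. Map2k1 exceeded Hras in 2 of 4 libraries, and Hras exceeded Araf in 2 of 4, so these 3 genes did not differ in level beyond their spread. The lowest values were those of Nras, at 9.05 ± 0.237 CPM per kilobase in Olfm4CKO and 7.22 ± 2.13 in Ctrl, and Braf, at 2.42 ± 0.356 in Olfm4CKO and 2.02 ± 1.18 in Ctrl. The ranges of Araf, Nras and Braf did not overlap. The lengths used run from 1800 bases for Mapk3 to 9728 for Braf, whose long transcript lowers its value per kilobase. With the union of all protein-coding exons as the length, an alternative chosen after seeing the data, every value of Araf lay below every value of Hras and the order was otherwise as above.

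**Figure D1:**
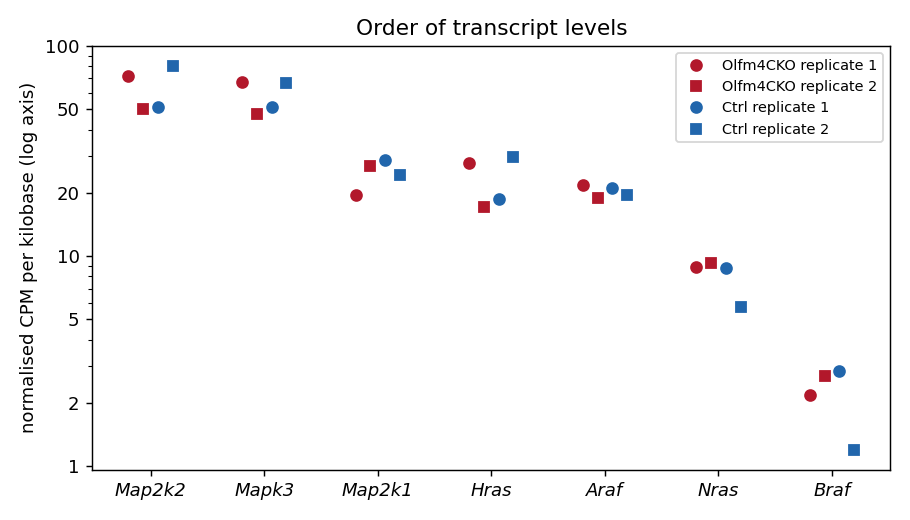
Normalised CPM per kilobase of transcript (log axis) of the 7 genes in the 4 libraries, Olfm4CKO in red and Ctrl in blue, ordered by the mean of all 4. Map2k2 and Mapk3 lie between 47.6 and 80.2, while Braf lies between 1.19 and 2.85.

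The RAS genes switch the cascade on. Hras lies on chromosome 7 (141189934 to 141194019, GRCm38, as for all coordinates). It had 78.2 and 48.4 normalised CPM in Olfm4CKO replicates 1 and 2, against 52.8 and 84.1 CPM in Ctrl replicates 1 and 2. Olfm4CKO replicate 1 and Ctrl replicate 2 were the high libraries, so the groups overlapped fully. Olfm4CKO over Ctrl gave a log2 fold change of -0.11 ± 0.38 (SE; 95% interval -0.96 to 0.73; edgeR quasi-likelihood test, Benjamini-Hochberg adjusted p = 0.9998).

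Nras lies on chromosome 3 (103058285 to 103067914). It had 39.7 and 41.2 CPM in Olfm4CKO replicates 1 and 2, against 39.0 and 25.6 CPM in Ctrl replicates 1 and 2. Both Olfm4CKO libraries lay above both Ctrl libraries, but Ctrl replicate 1 was within 1 CPM of Olfm4CKO replicate 1, and the difference came from Ctrl replicate 2. The log2 fold change was 0.33 ± 0.34 (SE; 95% interval -0.43 to 1.09; edgeR adjusted p = 0.9998), and it was 0.06 without Ctrl replicate 2. Nras was the 1 member of 7 whose groups did not overlap. Among the 13573 genes tested, the groups did not overlap with Olfm4CKO above for 11.8% and in either direction for 24.6%, so 1 of 7 is no more than the background. In Ctrl replicate 2, the library low for Nras, the 6 markers of T and NK cells summed to 47.5 CPM and the 7 macrophage markers to 253 CPM. The sums in the other libraries were 11.5 and 17.3 CPM (Olfm4CKO) and 9.77 CPM (Ctrl replicate 1) for T and NK cells, and 120 and 137 CPM (Olfm4CKO) and 111 CPM (Ctrl replicate 1) for macrophages. The 9 Schwann cell markers also summed highest in that library, at 525 CPM. Their sums were 217 and 172 CPM in the Olfm4CKO libraries and 304 CPM in Ctrl replicate 1. In log2 fold change, 8 of these 9 lay below 0, as did all 7 macrophage and all 6 T and NK cell markers. So did all 7 brown adipocyte and all 5 stromal markers, against 0 of 6 endothelial and 1 of 7 skeletal muscle markers. None of these marker genes was at 0 in all libraries, and their part in the Nras values was not tested.

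RAF kinases are the next step. Araf lies on the X chromosome (20797707 to 20860521) and was the steadiest member, at 62.0 and 53.7 CPM in Olfm4CKO replicates 1 and 2 against 60.4 and 55.7 CPM in Ctrl replicates 1 and 2. All 4 libraries lay within a 1.15-fold range, with both Ctrl values between the 2 Olfm4CKO values. Its range over the libraries was at the 2.26 percentile of all genes tested. Its log2 fold change was -0.0045 ± 0.33 (SE), with a 95% interval of -0.72 to 0.71 (edgeR adjusted p = 0.9998). Xist, transcribed from the inactive X chromosome, had 215 and 207 CPM in the Olfm4CKO libraries against 0 and 49.5 CPM in Ctrl replicates 1 and 2, so Araf stayed within that range across libraries whose Xist ran from 0 to 215 CPM.

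Braf lies on chromosome 6 (39603231 to 39725658) and varied most. It had 21.1 and 26.0 CPM in Olfm4CKO replicates 1 and 2, against 27.7 and 11.6 CPM in Ctrl replicates 1 and 2. The highest and the lowest library were both Ctrl, 2.40-fold apart, and the 2 Olfm4CKO values lay between them. The log2 fold change was 0.26 ± 0.43 (SE; 95% interval -0.67 to 1.20; edgeR adjusted p = 0.9998). It was -0.22 without Ctrl replicate 2 and 1.02 without Ctrl replicate 1, past the threshold in neither case (the adjusted p was 0.998 or higher with any library left out).

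MEK1 and MEK2 are the kinases that activate ERK, and they are close relatives with the same substrates. Map2k1 lies on chromosome 9 (64185769 to 64253605) and Map2k2 on chromosome 10 (81105913 to 81124697). Map2k1 had 47.6 and 65.7 CPM in Olfm4CKO replicates 1 and 2, against 70.1 and 58.9 CPM in Ctrl replicates 1 and 2. Olfm4CKO replicate 1 was the low library, and Olfm4CKO replicate 2 lay between the 2 Ctrl values. Between the genotypes the log2 fold change was -0.19 ± 0.34 (SE; 95% interval -0.94 to 0.56; edgeR adjusted p = 0.9998).

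Map2k2 was the most abundant member, above 93.4% of the genes tested in mean CPM. It had 173 and 121 CPM in Olfm4CKO replicates 1 and 2, against 123 and 193 CPM in Ctrl replicates 1 and 2. Its high libraries were Olfm4CKO replicate 1 and Ctrl replicate 2, as for Hras and the opposite of Map2k1. The log2 fold change was -0.11 ± 0.38 (SE; 95% interval -0.93 to 0.72; edgeR adjusted p = 0.9998).

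Mapk3, which encodes the ERK1 kinase at the end of the cascade, lies on chromosome 7 (126759626 to 126765816). It had 122 and 85.6 CPM in Olfm4CKO replicates 1 and 2, against 92.0 and 120.0 CPM in Ctrl replicates 1 and 2. The order of libraries was again that of Hras and Map2k2 in its high and low pairs. Its log2 fold change was -0.03 ± 0.35 (SE; 95% interval -0.81 to 0.75; edgeR adjusted p = 0.9998).

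**Figure D2:**
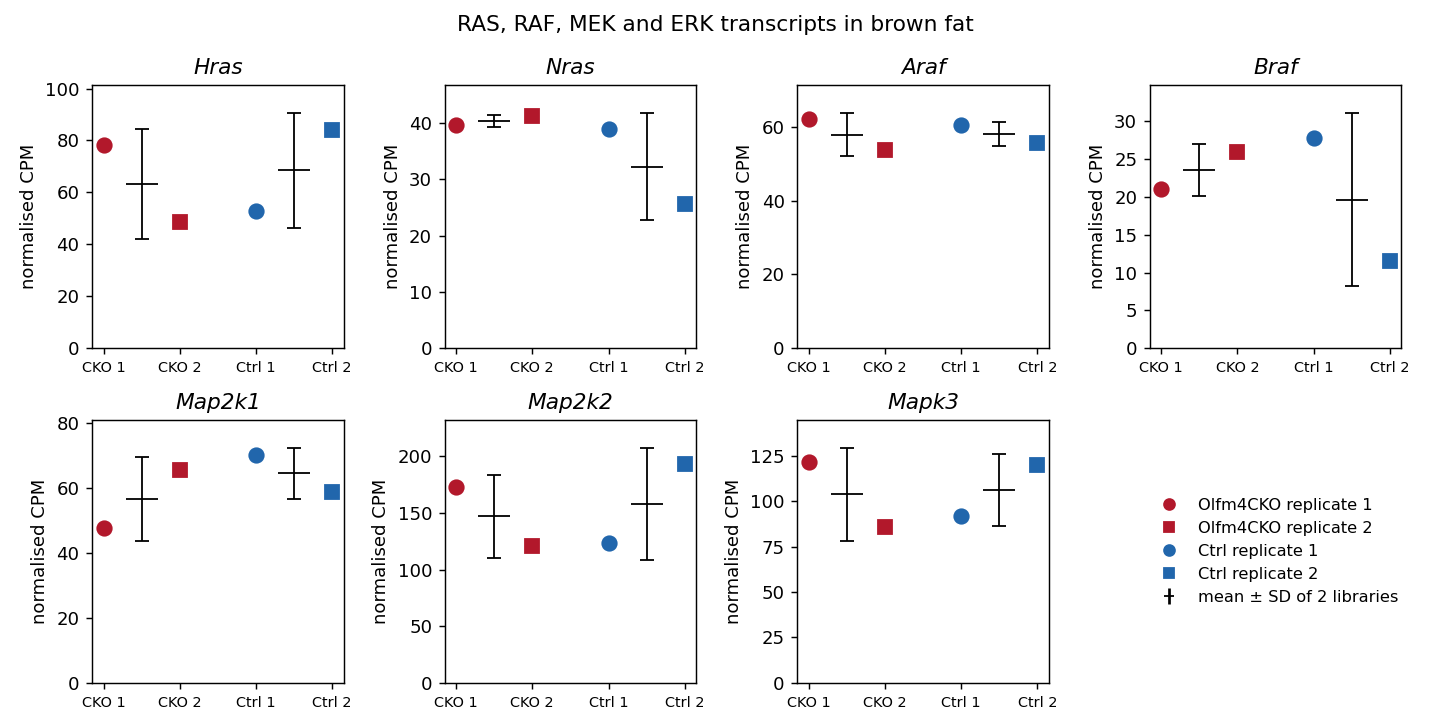
Normalised CPM of each gene in the 4 libraries (CKO 1 and 2 are Olfm4CKO replicates 1 and 2), with the mean ± SD of each group as black bars. Hras, Map2k2 and Mapk3 are high in Olfm4CKO replicate 1 and Ctrl replicate 2, whereas Nras and Braf are lowest in Ctrl replicate 2.

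No member of the cascade differed between Olfm4CKO and Ctrl past the threshold of 0.05. Of the 7 members, 2 had a log2 fold change above 0 and 5 below, with a median of -0.03, against a median of -0.01 over all 13573 genes tested. The number of genes called was 0 over the whole table (0.00%), by the edgeR quasi-likelihood test, with 287 (2.11%) at an unadjusted p below 0.05 and none of the members among them. DESeq2 called 1 gene (0.00737%), no member, and limma-voom 0. The 95% intervals of the members reached from -0.96 to 1.20 on the log2 scale, so changes of about 2-fold in either direction lie within several of them. In simulated counts with the spread of these 4 libraries, 100 genes were changed 2-fold and 100 were changed 8-fold. Of these, 9% of the 2-fold and 97% of the 8-fold changes were recovered, with 7 false among 113 calls. Most 2-fold changes were thus missed with 2 libraries a group. Both sizes of change were called together, unlike in the real counts, where edgeR called no gene, so the recovered shares need not hold there. With 1 library left out, the log2 fold changes ran from -0.48 to 0.27 for Hras, from 0.06 to 0.66 for Nras, from -0.09 to 0.09 for Araf and from -0.22 to 1.02 for Braf. They ran from -0.44 to 0.05 for Map2k1, from -0.39 to 0.26 for Map2k2 and from -0.29 to 0.20 for Mapk3. All but Nras turned in sign with at least 1 library left out.

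**Figure D3:**
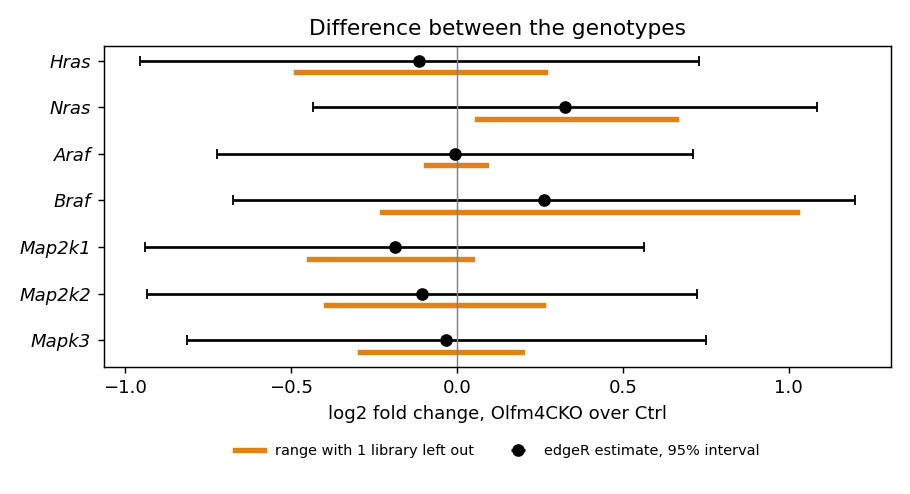
Log2 fold change of each gene, Olfm4CKO over Ctrl, with the 95% interval of the edgeR fit (black) and the range of the estimate with each library left out in turn (orange). All 7 intervals include 0, and the orange range of Nras alone stays above 0.

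Within each pair of related genes the ratio varied more between libraries of a group than between the groups. Per length, Map2k1 made up 21.4% and 34.9% of the Map2k1 plus Map2k2 signal in Olfm4CKO replicates 1 and 2, against 36.0% and 23.2% in Ctrl replicates 1 and 2. The means were 28.1% ± 9.57 in Olfm4CKO and 29.6% ± 9.03 in Ctrl (exact two-sided permutation test, p = 0.667, n = 2 each). The smallest p that 2 libraries against 2 allow is 0.333. The log2 ratio of Nras over Hras per length was -1.64 and -0.89 in Olfm4CKO against -1.10 and -2.38 in Ctrl. That of Braf over Araf was -3.32 and -2.82 in Olfm4CKO against -2.89 and -4.04 in Ctrl. Of the 3 pairs none reached a p below 0.667 in the exact permutation test.

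Although the members moved by up to 2.40-fold between libraries, their average did not. The mean of their log2 CPM, centred per gene, was 0.10 and -0.06 in Olfm4CKO replicates 1 and 2 against 0.02 and -0.06 in Ctrl replicates 1 and 2. The members moved against each other instead. Olfm4CKO replicate 1 and Ctrl replicate 2 held more Hras, Map2k2 and Mapk3, while Olfm4CKO replicate 2 and Ctrl replicate 1 held more Braf and Map2k1. These library pairs cross the genotypes.

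Across the tested genes, levels in each library also moved with transcript length and base composition, and not every member followed its length class. Over 12298 tested genes with an annotated protein-coding transcript, the Spearman correlation between centred log2 CPM and transcript length, across genes, which are not independent replicates, was -0.24 and 0.51 in Olfm4CKO replicates 1 and 2 and 0.32 and -0.49 in Ctrl replicates 1 and 2. Tested genes were put in 5 length classes of equal size. For the longest class (5171 bases or more), the median centred level was -0.08 and 0.27 in Olfm4CKO replicates 1 and 2 against 0.17 and -0.34 in Ctrl replicates 1 and 2. For the shortest class (1814 bases or fewer) it was 0.20 and -0.27 in Olfm4CKO against -0.13 and 0.21 in Ctrl. Braf, with a transcript of 9728 bases, falls in the longest class. Its centred level was 0.04 and 0.34 in Olfm4CKO replicates 1 and 2 against 0.43 and -0.82 in Ctrl replicates 1 and 2. Mapk3, at 1800 bases, falls in the shortest class, and its centred level was 0.23 and -0.28 in Olfm4CKO against -0.17 and 0.21 in Ctrl. Map2k1, at 2436 bases, did not follow its class, the second shortest. The medians of that class were 0.01 and -0.08 in Olfm4CKO against -0.02 and 0.12 in Ctrl. The centred level of Map2k1 was -0.33 and 0.13 in Olfm4CKO against 0.22 and -0.02 in Ctrl. Hras, at 2828 bases, did not follow the middle class either, whose medians were -0.03 and 0.01 in Olfm4CKO against 0.03 and 0.03 in Ctrl. The centred level of Hras was 0.29 and -0.40 in Olfm4CKO against -0.28 and 0.39 in Ctrl. Araf, in the same class at 2854 bases, was at 0.10 and -0.11 in Olfm4CKO against 0.06 and -0.06 in Ctrl.

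Map2k1 and Map2k2, which had opposite library orders, have transcripts of 2436 and 2405 bases with a GC content of 51.2% and 60.4%. Hras and Araf have transcripts of 2828 and 2854 bases with a GC content of 55.2% and 45.4%. The correlation of centred level with GC content across genes was 0.08 and -0.12 in Olfm4CKO replicates 1 and 2 and -0.33 and 0.30 in Ctrl replicates 1 and 2. With the trend in transcript length and GC content removed within each library, an alternative chosen after seeing the data, the range over the 4 libraries went down to 0.48 for Braf (1.25 before, log2 scale), 0.42 for Map2k2 (0.67 before) and 0.26 for Mapk3 (0.51 before). It was 0.68 for Hras (0.80 before), 0.52 for Nras (0.69 before), 0.58 for Map2k1 (0.56 before) and 0.24 for Araf (0.21 before). The log2 fold change between genotypes was then -0.06 for Hras, 0.33 for Nras, 0.05 for Araf, 0.12 for Braf, -0.12 for Map2k1, -0.09 for Map2k2 and 0.03 for Mapk3, and 0 members and 0 genes in all passed. The part of RNA quality or library preparation in these trends was not tested.

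**Figure D4:**
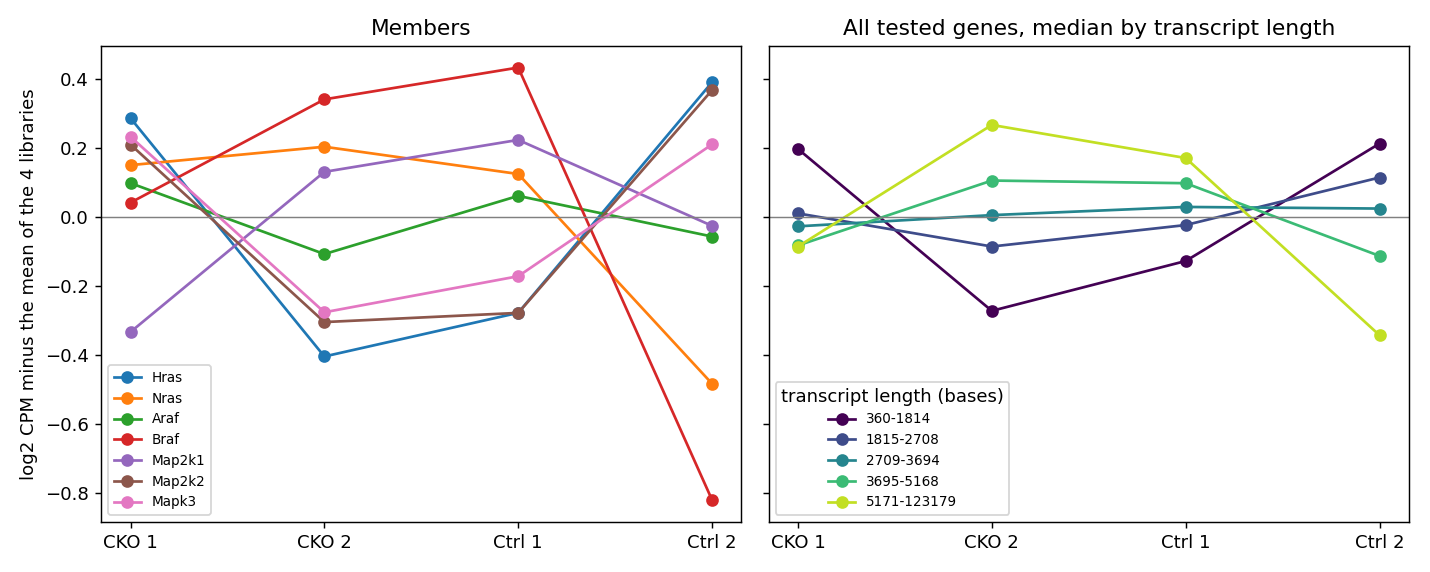
Left, log2 CPM of each gene minus its mean over the 4 libraries; right, the median of the same quantity for all tested genes in 5 classes of transcript length. Lines join the values of 1 gene or 1 class and imply no order of libraries. Braf follows the longest class, with its lowest value in Ctrl replicate 2, and Mapk3 the shortest.

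Promoters of members with like and unlike library order are shown so that their letters can be set side by side. Promoter sequences came from RefSeq (GRCm38.p6), which gave 6 of the 7 members, Mapk3 being the other. Its windows are set from the transcript start in that table, which can lie inside the gene span given above: the windows of Hras and Map2k2 overlap their spans by a few bases, and those of Araf and, in large part, Braf lie within it. The 250 bases before that start are printed 5′ to 3′ on the strand of the gene for Hras and Map2k2, whose library order was alike, and for Map2k1, the relative of Map2k2 with the opposite order. For Braf a stretch of 26 bases with 2 matches to the cAMP response element is printed, at bases 99 to 74 before the start in the table and inside the gene span given above. Capitals mark matches, on either strand, to GGGCGG (the GC box), CCAAT, TGACGTCA (the cAMP response element), the NRF1 palindrome (marked in Map2k2) and TATAAA.
Hras, chr7:141194005-141194254, minus strand: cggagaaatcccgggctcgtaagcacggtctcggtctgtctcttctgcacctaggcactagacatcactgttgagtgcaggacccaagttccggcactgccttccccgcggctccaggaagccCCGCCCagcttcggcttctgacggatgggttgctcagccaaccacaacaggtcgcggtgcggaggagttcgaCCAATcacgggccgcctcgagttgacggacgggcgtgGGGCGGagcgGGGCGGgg
Map2k2, chr10:81105665-81105914, plus strand: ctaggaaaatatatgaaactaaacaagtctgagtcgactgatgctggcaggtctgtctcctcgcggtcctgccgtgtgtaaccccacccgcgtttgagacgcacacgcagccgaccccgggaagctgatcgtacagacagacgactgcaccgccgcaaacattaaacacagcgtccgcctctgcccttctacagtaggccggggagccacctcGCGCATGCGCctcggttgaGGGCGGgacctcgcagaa
Map2k1, chr9:64253606-64253855, minus strand: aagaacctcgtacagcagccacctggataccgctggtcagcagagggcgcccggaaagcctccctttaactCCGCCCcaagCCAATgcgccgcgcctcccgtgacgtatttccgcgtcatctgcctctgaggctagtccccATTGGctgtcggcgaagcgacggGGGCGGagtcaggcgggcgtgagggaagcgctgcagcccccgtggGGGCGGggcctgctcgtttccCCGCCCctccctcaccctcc
Braf, chr6:39725537-39725562, minus strand: TGACGTCAcgcacccaggTGACGTCA

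None of the 6 promoters held TATAAA, which 12.4% of all 32851 promoter windows of that length hold. GGGCGG occurred 3 times in Hras, 4 times in Map2k1, 2 times in Nras and 1 time each in Map2k2 and Braf, and not in Araf; 32.7% of all windows hold it. CCAAT occurred 3 times in Araf, 2 times in Map2k1 and 1 time in Hras, against 33.8% of all windows. TGACGTCA occurred 2 times, both in Braf, and is in 1.55% of all windows. The NRF1 palindrome occurred 1 time, in Map2k2, and is in 0.78% of all windows. These matches describe the letters only. Hras and Map2k2, whose libraries ordered alike, shared GGGCGG alone among the motifs searched, and Map2k1, with the opposite order, held it too.

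By a distance over the 4 libraries (root mean square difference of centred log2 CPM), the 5 protein-coding genes of 12206 nearest to the mean profile of the members were Eml1, Pfkfb4, Ublcp1, Rac1 and Pacrgl, at 0.01 to 0.02. The mean profile is nearly flat, so these are genes with little spread. Nearest to Braf, the member with the widest range, were Nipbl (0.03), Mpp5 (0.03) and Ccdc88a (0.04). Nipbl, a cohesin loader, had 51.3 and 62.5 CPM in Olfm4CKO replicates 1 and 2 against 65.0 and 27.0 CPM in Ctrl replicates 1 and 2. With 4 libraries such nearness is a description only.

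The wider pathway was read from 10 lists chosen by function. Of 92 tested genes in these lists, 0 passed the edgeR threshold, 48 had a log2 fold change above 0 and 44 below, and the median was 0.03, against -0.01 over all genes tested. The groups did not overlap with Olfm4CKO above for 16 genes and with Olfm4CKO below for 5, where the whole table had 11.8% above and 12.8% below. Of all genes tested, 2.11% had an unadjusted p below 0.05, 204 of them higher in Olfm4CKO and 83 lower. In the lists there were 5 such genes, each higher in Olfm4CKO: Irs1, Rasgrp3, Dusp7, Spry4 and Fosl1, at an edgeR adjusted p of 0.9998 each.

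Upstream of RAS, the exchange factors that load it with GTP had 5 of 7 tested members above 0 (median 0.67) and none past the threshold. The median was 0.30 without Ctrl replicate 2, and 0.30 to 0.56 with any 1 library left out. Rasgrp3 had 42.7 and 29.6 CPM in Olfm4CKO replicates 1 and 2 against 24.4 and 16.4 CPM in Ctrl replicates 1 and 2, a log2 fold change of 0.83 ± 0.36 (SE). The groups did not overlap. Rasgrp3 is expressed in endothelial cells, and the 6 endothelial markers summed to 1370 and 1252 CPM in Olfm4CKO against 880 and 818 CPM in Ctrl. The groups overlapped for 3 of these 6 markers (Pecam1, Tek and Emcn), none passed the threshold, and their part in the Rasgrp3 value was not tested. Rasgrp1, an exchange factor of lymphocytes, had the smallest p of the members below 0 (-0.85 ± 0.73 SE), with 34 counts over the Olfm4CKO libraries and 65 over the Ctrl libraries. The GTPase-activating proteins, which switch RAS off, had 6 of 9 above 0 (median 0.20), with Rasa3 at 0.61 ± 0.42 and Rasal3 at -0.97 ± 0.85 (SE). Rasa3 was at 0.11 without Olfm4CKO replicate 2. Rasal3 turned to 1.35 without Ctrl replicate 2, which held 95 of its counts, against 22 and 28 in the Olfm4CKO libraries and 10 in Ctrl replicate 1.

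Adaptors that link receptors to RAS had 5 of 9 members above 0 (median 0.16), and the median turned to -0.26 without Olfm4CKO replicate 2 and to -0.03 with limma-voom. Irs1, the insulin receptor substrate, had 47.7 and 149 CPM in Olfm4CKO replicates 1 and 2 against 26.2 and 39.2 CPM in Ctrl replicates 1 and 2. Its log2 fold change was 1.59 ± 0.50 (SE), and Olfm4CKO replicate 2 carried most of it: without that library it was 0.54, and without Olfm4CKO replicate 1 it was 2.21 and passed (edgeR adjusted p = 0.00056). Irs2, named after its values were seen, had 8.07 and 358 CPM in Olfm4CKO replicates 1 and 2 against 101 and 86.2 CPM in Ctrl replicates 1 and 2, so the 2 Olfm4CKO libraries lay on opposite sides of Ctrl. It passed as higher without Olfm4CKO replicate 1 (1.96, edgeR adjusted p = 0.00549) and as lower without Olfm4CKO replicate 2 (-3.54, edgeR adjusted p = 0.00971). Frs3, an adaptor of fibroblast growth factor receptors, had a log2 fold change of -0.42 ± 0.54 (SE), which turned to 0.30 without Ctrl replicate 1. Among genes of RAS lipid processing and trafficking, 1 of 7 lay above 0 (median -0.10). The farnesyltransferase subunits Fntb and Fnta were at 0.31 ± 0.38 and -0.21 ± 0.33 (SE).

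Scaffolds and modulators of RAF, MEK and ERK had 7 of 14 members above 0 (median -0.02). The 14-3-3 protein gene Ywhaz had 155 and 129 CPM in Olfm4CKO against 105 and 90.8 CPM in Ctrl (0.54 ± 0.34 SE), and Lamtor2, a subunit of the lysosomal Ragulator complex, lay at -0.34 ± 0.38 (SE). Kinases that ERK activates had 3 of 7 above 0 (median -0.03), with Rps6ka3, the RSK2 gene, at 0.49 ± 0.37 and Rps6ka4 at -0.20 ± 0.34 (SE). Other RAS-like GTPases had 3 of 9 above 0 (median -0.06). Among them Rap1b had 86.1 and 86.2 CPM in Olfm4CKO against 73.4 and 76.0 CPM in Ctrl (0.21 ± 0.32 SE), and Mras was at -0.36 ± 0.41 (SE). The MAP2K and MAPK genes of other modules had 9 of 13 above 0 (median 0.10), with Mapk6 at 0.38 ± 0.35 and Map2k5 at -0.18 ± 0.33 (SE).

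Some genes respond to ERK activity itself, among them its feedback inhibitors. These feedback inhibitors had 6 of 10 members above 0 (median 0.35) and 0 past the threshold. Dusp7, a phosphatase that acts on ERK, had 52.8 and 74.5 CPM in Olfm4CKO replicates 1 and 2 against 31.9 and 33.9 CPM in Ctrl replicates 1 and 2, a log2 fold change of 0.95 ± 0.34 (SE), with no overlap. Dusp4, a nuclear phosphatase of the family, had 25.5 and 182 CPM in Olfm4CKO against 129 and 145 CPM in Ctrl, and its log2 fold change of -0.40 ± 0.66 (SE) became -2.43 when Olfm4CKO replicate 2 was left out and 0.43 when Olfm4CKO replicate 1 was. Genes that ERK induces had 3 of 7 above 0 (median -0.03), among them Fosl1, an AP-1 subunit, with 24 counts over the 2 Olfm4CKO libraries and 1 over the 2 Ctrl libraries, and Etv5 at -0.54 ± 0.59 (SE). With 1 library left out, the medians of 7 of the 10 lists turned in sign. Those of the exchange factors, the feedback inhibitors (0.22 to 0.51) and the other MAP2K and MAPK genes (0.13 to 0.25) stayed above 0. Of the other named genes, Lamtor2, Rps6ka4 and Map2k5 turned to 0.03, 0.11 and 0.0013, each without Ctrl replicate 2.

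**Figure D5:**
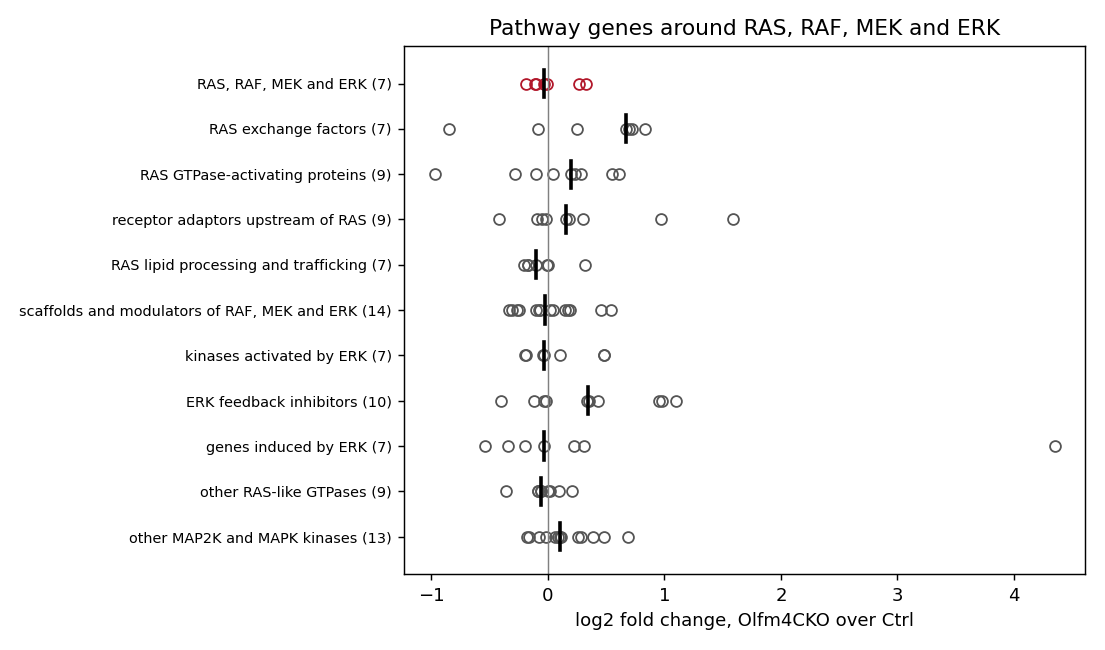
Log2 fold change, Olfm4CKO over Ctrl, of every tested gene in the 10 pathway lists and of the 7 members (top row, red), with the number tested in brackets and the median as a black bar. The members lie between -0.19 and 0.33; the point near 4.35 is Fosl1, which rests on 1 Ctrl count.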

How the data were processed

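Messenger RNA libraries of brown fat were sequenced. Per the submitters' processing notes, reads were trimmed with cutadapt 1.11, mapped on mm10 by HISAT2 2.1.0 and assigned to genes by featureCounts 1.6.0. For annotation and strandedness, nothing is stated in the sources used here. Reads of overlapping or near-identical genes may be shared; RefSeq has Nras-ps2, a pseudogene of Nras, and genes overlapping Araf (Syn1 among them), Braf (a lncRNA) and Map2k1 (Uchl4), the counted ones at 14 counts or fewer. Although its name says FPKM, the deposited table holds whole numbers whose columns sum to different totals, and the authors' values were taken as raw counts. Of 35978 rows, 3 (the broken row of Neb) hold no counts in replicates 1 and 2 and were left out; 27 have a date for a symbol and were kept unnamed.

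Olfm4CKO and Ctrl, 2 libraries each, were compared with R 4.3.3 and edgeR 4.0.16. Low genes were removed by filterByExpr (count 10, total 15), followed by TMM scaling, quasi-likelihood test on group, Benjamini-Hochberg adjustment over 13573 genes, threshold 0.05. Standard errors are the log2 fold change over the square root of F. Normalised CPM use the TMM library sizes. Centred levels are log2 CPM with a prior count of 2. Transcript length and GC content are those of the longest protein-coding transcript in GENCODE vM21, an mm10 annotation, and coordinates are from RefSeq on GRCm38.p6, the same build. No replicate pair was a repeat of one library: chi-square over its degrees of freedom was 130.1 in Olfm4CKO and 85.2 in Ctrl. Simulated counts with known changes tested the fit.

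The members, the pathway and marker lists and the tests were chosen with earlier results of these data known. Named pathway genes are, for each list, the tested member with the smallest p above 0 and that below 0. Spry4, Irs2 and the genes called under an alternative were named after their values were seen. Alternatives were RLE, upper-quartile and total-count scaling, no filter, no mitochondrial genes, DESeq2 1.42.0, limma-voom (limma 3.58.1), a replicate block, removal of a spline trend in length and GC content (5 degrees of freedom each), and each library left out.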

Additional observations from a re-analysis of the deposited data

How the results depend on the processing

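None of the 7 members passed the threshold under any of the 13 alternatives, which gave 91 member values, 74 with the direction reported and 17 with the opposite one. Leaving out 1 library turned 6 members: the ranges were -0.48 to 0.27 for Hras, -0.0927 to 0.0893 for Araf, -0.22 to 1.02 for Braf, -0.44 to 0.0454 for Map2k1, -0.39 to 0.26 for Map2k2 and -0.29 to 0.20 for Mapk3 (log2 fold change). Araf and Mapk3, near 0, also turned by scaling: Araf was 0.0053 with RLE scaling and with DESeq2, 0.0260 with library totals, 0.0202 without mitochondrial genes and 0.0521 with the length and GC trend removed, and Mapk3 was 0.0001 with library totals and 0.0274 with the trend removed. The count of genes called, 0 by edgeR, was 1 with DESeq2 and 6 to 27 with 1 library left out. Pathway list members called were 0 to 2 with 1 library left out. With a library left out, the Olfm4CKO minus Ctrl difference in log2 ratio ran from -0.17 to 1.1134 for Nras over Hras, -0.18 to 0.97 for Braf over Araf and -0.60 to 0.38 for Map2k1 over Map2k2, and that of the Map2k1 share from -8.19 to 5.34 percentage points. The lone library of a group is then assumed to vary like the other group. Without division by length the pair differences were the same by construction, and the share difference was -1.44 points.

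The groups share replicate numbers. Deviations from the group means of libraries with the same number correlated at 0.0027 over 13573 genes, and the numbers were not taken to pair them. Trends with transcript length ran in opposite directions in libraries of the same number, so this value cannot exclude a pairing. The replicate block gave 4 genes called, no member or pathway list gene among them. The biological coefficient of variation between libraries was 32.6%, and for genes with few counts, such as Rasgrp1 and Fosl1, counting error adds to it.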
